A study of Mus musculus with 12 samples.

Results

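The growth hormone and insulin-like growth factor (IGF) axis of the liver was described through 10 genes: Ghr, Stat5b, Socs2, Igf1, Igfals, Igfbp1, Igfbp2, Igfbp3, Inhbe and Fst. They were chosen with earlier results of these data known and were matched by gene symbol. Each of the 10 had a single feature on the array, of 30145 genes that had a feature with 1 symbol. Livers came from 12 mice of the C57BL6/J strain aged 12 weeks: 6 knockout (KO) mice with the genotype ENT3 -/- and 6 wild-type (WT) mice with the genotype ENT3 +/+, with 3 females and 3 males of each by the letters F and M in the sample titles. Slc29a3 is the gene of ENT3, an intracellular nucleoside transporter. The labels name no driver line, promoter or exon for the deletion, and feeding state and hour of death were not given in the sources used here. There was 1 array per liver, and all values are log2 signals as deposited, so that 1 unit is a 2-fold change on that scale. Levels were compared between mice for the same gene and never between genes.

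Growth hormone from the pituitary binds its receptor, Ghr, on hepatocytes and acts through the transcription factor STAT5B. Known targets of this route include Igf1, the main circulating growth mediator, Igfals, the acid-labile subunit that holds IGF in a large serum complex, and Socs2, a feedback inhibitor of the receptor. IGF binding proteins carry IGF in blood: IGFBP3 forms the large complex with the acid-labile subunit, IGFBP1 is acutely induced in liver by fasting, stress and inflammation, and IGFBP2 is another abundant binding protein of liver and serum. Inhbe encodes the activin beta E subunit, a hepatokine, and Fst encodes follistatin, a secreted protein that binds activins. Rodent liver reads the sex-specific secretion pattern of growth hormone, and many liver genes differ between males and females through it.

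The upstream windows of 3 members that moved far in KO livers are printed here because each holds a match to a motif of a factor known to act on the axis. Windows run from 250 bases before to 50 bases after an annotated start site, come from RefSeq (GRCm38.p6), are written 5′ to 3′ on the strand of the gene, and show the motif match in capitals. Of the 10 members 8 were matched by symbol, with 13 windows.
Igfbp1, chr11:7197537-7197836, plus strand: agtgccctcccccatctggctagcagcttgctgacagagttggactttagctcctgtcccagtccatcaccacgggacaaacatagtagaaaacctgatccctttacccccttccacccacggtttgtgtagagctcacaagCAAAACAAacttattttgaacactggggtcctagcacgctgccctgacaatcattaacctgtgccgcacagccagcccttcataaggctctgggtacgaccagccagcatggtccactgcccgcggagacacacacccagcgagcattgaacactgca
Igfals, chr17:24877981-24878280, plus strand: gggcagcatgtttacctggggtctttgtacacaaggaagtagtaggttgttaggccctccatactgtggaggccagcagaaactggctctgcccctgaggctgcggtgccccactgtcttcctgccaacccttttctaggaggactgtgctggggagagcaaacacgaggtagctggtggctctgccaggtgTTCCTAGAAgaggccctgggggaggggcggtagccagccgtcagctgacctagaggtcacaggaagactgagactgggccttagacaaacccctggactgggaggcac
Inhbe, chr10:127351799-127352098, minus strand: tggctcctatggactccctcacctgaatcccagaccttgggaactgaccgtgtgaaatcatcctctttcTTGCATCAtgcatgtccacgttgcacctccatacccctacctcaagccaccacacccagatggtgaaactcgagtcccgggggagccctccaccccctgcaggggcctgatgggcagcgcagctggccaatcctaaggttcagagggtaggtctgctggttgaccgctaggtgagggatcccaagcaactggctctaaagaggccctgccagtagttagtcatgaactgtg

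In Igfbp1 the capitals mark CAAAACAA, the insulin response sequence bound by FOXO factors, at -108 to -101 from the start site. Of 32851 promoter windows of the same length 2.51% held that run on either strand, and 1 of the 13 member windows did. In Igfals the capitals mark a match to TTCNNNGAA, the palindromic element of STAT5, at -58 to -50. This element occurred in 8.3% of all windows and in 2 of the 13 member windows, both of Igfals, the other match lying at -236 to -228 from a second start site. In Inhbe the capitals are the reverse complement of TGATGNAA, a short form of the element bound by ATF4 with C/EBP proteins, at -181 to -174. Of all windows 3.97% held it, and 1 of the 13 member windows did. They are 3 of the 7 motifs searched, and the printed windows also hold matches not in capitals. Those are GTTAAT in Igfbp1 (-56 to -51), TGTTTNC in Igfals (-242 to -236 and -92 to -86) and CCAAT in Inhbe (-55 to -51). Among all windows 7.1%, 20.5% and 37.4% held these motifs. All matches describe the letters of the windows, and binding was not measured.

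The deletion and the tissue were checked first. Slc29a3 averaged 4.13 ± 0.04 in KO livers and 5.07 ± 0.18 in WT livers (SD, n = 6 each), and no KO liver reached a WT liver, although all 12 values lay below the 95th percentile of the negative control features of their own array, a level used here as the background of the array (6.20 to 6.83). Hepatocyte markers were high in every liver: their mean level was 19.02 to 19.23 in KO livers and 19.10 to 19.23 in WT livers, near the ceiling of the scale at 19.93, where 8 of the 10 markers lay on all arrays and could show no difference. KO livers also carried more signal of immune cells. The mean of 12 Kupffer cell and macrophage markers was 9.30 to 12.96 in KO livers and 7.72 to 9.05 in WT livers, and that of 12 neutrophil markers was 5.01 to 8.10 in KO livers and 4.17 to 4.67 in WT livers (exact permutation p = 0.005 for each, two-sided, the smallest that 400 arrangements within sex allow; Benjamini-Hochberg adjusted p = 0.0162 over 13 array measures). Macrophage markers were highest in KO female 40, at 12.96. The median of the poly-A spikes, RNAs added during labelling, was 5.06 to 6.11 in KO livers and 6.02 to 7.06 in WT livers (exact permutation p = 0.005, adjusted p = 0.0162). The median of the negative controls was 0.14 higher in KO livers (adjusted p = 0.0162), that of the positive controls differed by -0.39 (adjusted p = 0.0217) and that of all transcript features 0.07 higher (adjusted p = 0.0279), and the background level was 6.40 or more on all KO arrays and 6.39 or less on all WT arrays. Apart from 1 fit with the spike level as a covariate, the part of these differences in the members' results was not tested. In whole liver, fewer cells of a type and less RNA per cell cannot be told apart.

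With KO set against WT over both sexes, 8 of the 10 members passed the test (limma, adjusted p under 0.05 over 65956 transcript features), 3 higher and 5 lower in KO livers. Of all features 9.75% passed (5.28% higher, 4.47% lower), of 18309 protein-coding genes 15.8% did, and of the 10483 features above background on at least 3 arrays 36.5% did. Igfbp1, Igfbp3 and Fst rose in KO livers, and Ghr, Stat5b, Igfals, Igfbp2 and Inhbe fell. Igf1 and Socs2 did not pass. The median size of the members' differences was 0.96, against 0.10 for all features. These medians are not like for like. Above background on at least 3 arrays were 8 of the 10 members, against 10483 of the 65956 features. The members were chosen with earlier results of these data known, so their counts and sizes are descriptions, and no enrichment was tested. With the spike level as a covariate, a term that differs between the genotypes itself, 0 features and 0 members were called by limma (5631 features and 6 members at an unadjusted p under 0.05). The differences in that fit were -1.39 for Ghr, -0.52 for Stat5b, -1.25 for Igfals, 6.47 for Igfbp1, 2.01 for Igfbp3, -5.94 for Inhbe and 0.27 for Fst, so that these kept their sign, and 0.13 for Igfbp2, which did not. KO male 19 had a spike level, 6.11, within that of the WT arrays, and WT female 38 had the lowest array median, 3.76. Without both, Ghr, Stat5b, Igfbp3, Inhbe and Fst passed, and Igfals (-1.79, adjusted p = 0.0879), Igfbp1 (4.31, adjusted p = 0.0511) and Igfbp2 (-0.93, adjusted p = 0.0750) did not.

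**Figure D1:**
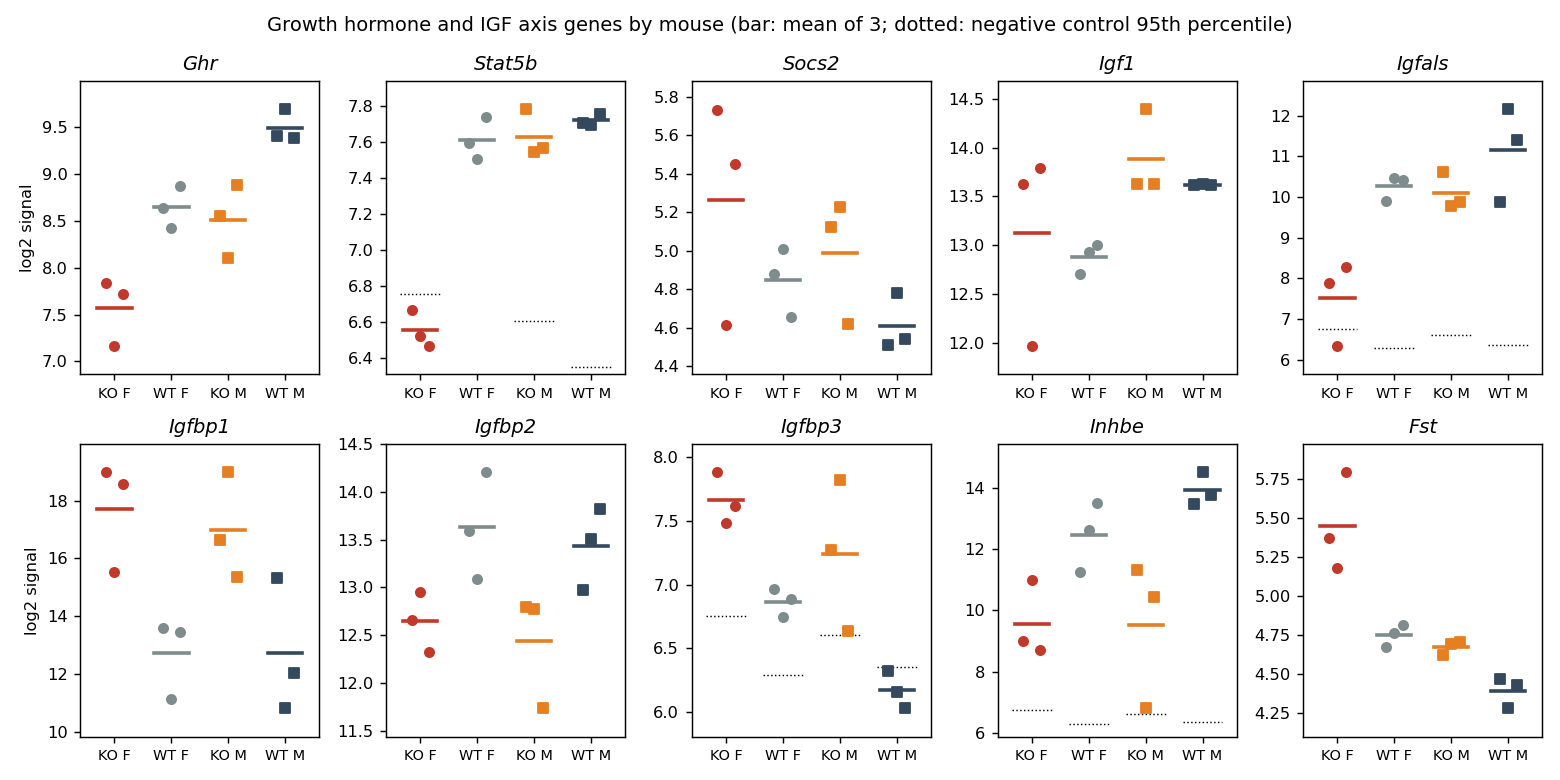
Log2 signal of the 10 members in each liver. Each panel is 1 gene, with KO females, WT females, KO males and WT males from left to right; points are mice, bars are means of 3 mice, and dotted lines, where they fall inside a panel, are each group's mean 95th percentile of the negative control features. Igfbp1 was 15.34 or higher in all 6 KO livers, and Socs2 and Fst lay under that percentile, which is above the top of their panels.

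At the top of the axis, Ghr, the growth hormone receptor, was 7.84, 7.17 and 7.72 in KO females 13, 40 and 69, against 8.64, 8.43 and 8.87 in WT females 25, 27 and 38. It was 8.55, 8.10 and 8.88 in KO males 18, 19 and 39, against 9.40, 9.69 and 9.39 in WT males 17, 23 and 33. Within each sex every KO liver was below every WT liver, and KO males overlapped WT females. Over both sexes Ghr fell by 1.02 ± 0.16 (SE; adjusted p = 0.00364), close to 2-fold. In females it was -1.07 (adjusted p = 0.0228), and -0.98 for males (adjusted p = 0.0795), and the contrast between these, females minus males, was -0.09 (95% confidence interval -0.79 to 0.62). The order of the group means was KO females (7.58), KO males (8.51), WT females (8.64) and WT males (9.49).

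Stat5b, the transcription factor activated through Ghr, was 6.67, 6.52 and 6.47 in KO females, against 7.59, 7.50 and 7.74 in WT females. It was 7.78, 7.54 and 7.56 in KO males, against 7.70, 7.69 and 7.75 in WT males. KO females stood apart from the other 9 mice, whose values lay between 7.50 and 7.78 and overlapped between genotypes. All 3 KO females were at or under the background of their arrays, so the fall has only a lower bound: Stat5b was at least 1.81-fold lower in KO females than in WT females (measured means 6.55 ± 0.10 and 7.61 ± 0.12, SD, n = 3 each; limma adjusted p = 0.000772). In males the difference was -0.09 ± 0.09 (SE; 95% confidence interval -0.29 to 0.11; adjusted p = 0.771). The difference between the sexes, -0.97 ± 0.13, was the only one among the members with an unadjusted p under 0.05 (adjusted p = 0.0746 over all features). Of all features 0.00152% passed in that comparison, and 0 of the 10 members did. When only the 10483 features above background were tested, Stat5b passed it at an adjusted p of 0.0310.

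Socs2, the feedback inhibitor, was 5.73, 4.61 and 5.45 in KO females, against 4.88, 5.01 and 4.65 in WT females. In KO males it was 5.12, 5.23 and 4.62, against 4.51, 4.78 and 4.54 in WT males. The groups overlapped in both sexes, and every value was within background. The difference of 0.40 ± 0.19 did not pass the test (adjusted p = 0.232; 95% confidence interval -0.01 to 0.81). Without KO female 40 it was 0.56 and passed (adjusted p = 0.0260).

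Of 20 other genes of growth hormone and prolactin receptor signalling, 16 did not pass, 2 were higher and 2 lower in KO livers, and the median difference was 0.14. That share is near the 15.8% of protein-coding genes that passed. Ptpn1, a phosphatase known to act on JAK2, rose by 0.93 ± 0.20 (adjusted p = 0.0173), above background in 5 of 6 KO and 1 of 6 WT livers. Grb2, an adaptor of receptor tyrosine kinases, rose by 0.42 ± 0.09 over both sexes (adjusted p = 0.0199). The difference was 0.86 among females (adjusted p = 0.00631) and -0.03 among males (adjusted p = 0.972). A call in females and none in males does not show that the sexes differed for Grb2. Shc1, another adaptor, fell by 0.46 ± 0.09 (adjusted p = 0.0111), and Stat5a, the close relative of Stat5b, fell by 0.24 ± 0.05 (adjusted p = 0.00944) with all 12 values within background. Of the 20 genes 10 were not above background on any array.

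Igf1, the hormone of the axis, did not pass the test. It was 13.62, 11.97 and 13.79 in KO females, against 12.71, 12.93 and 13.001 in WT females. The KO males had 13.62, 14.39 and 13.62, against 13.61, 13.62 and 13.61 in WT males. KO females spanned the WT females on both sides, and KO males 18 and 39 lay on the values of the WT males. The difference was 0.25 ± 0.29 (adjusted p = 0.661), with a 95% confidence interval of -0.39 to 0.90. Without KO female 40 it was 0.54 and passed narrowly (adjusted p = 0.0450). The values had an unusual form: those of 6 of the 12 livers, from 3 groups, agreed within 0.0112. Of 1023 features with a mean between 12 and 15, 3.91% had 6 arrays as close together, and the reason was not tested.

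Igfals, the acid-labile subunit, fell. It was 7.89, 6.34 and 8.28 in KO females, against 9.91, 10.46 and 10.42 in WT females. The KO males had 10.62, 9.78 and 9.88, against 9.89, 12.15 and 11.40 in WT males. Every KO female was below every WT female, while in males WT male 17 lay among the KO males. Igfals fell by 1.90 ± 0.42 over both sexes (adjusted p = 0.0195), with -2.76 ± 0.60 in females (adjusted p = 0.0269), and its difference of -1.05 ± 0.60 in males did not pass (adjusted p = 0.532). The difference between the sexes was -1.70 (95% confidence interval -3.60 to 0.19; adjusted p = 0.784). KO female 40, the liver with the highest macrophage markers, had the lowest Ghr, Igf1 and Igfals of all 12, and its Igfals value was within background.

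Among the binding proteins, Igfbp1 had the largest mean difference of any member. It was 18.99, 15.54 and 18.59 in KO females, against 13.58, 11.11 and 13.45 in WT females. The KO males had 16.64, 18.98 and 15.34, against 15.32, 10.80 and 12.03 in WT males. All 6 KO livers were above all 6 WT livers, by a narrow margin between KO male 39 and WT male 17, and the KO livers themselves differed by 3.65. Of the 10 members 2 separated the 6 KO from the 6 WT livers in this way, Igfbp1 and Igfbp2, as 3.91% of all features did. Igfbp1 averaged 17.35 ± 1.72 in KO livers and 12.72 ± 1.72 in WT livers (SD, n = 6 each), a rise of 4.63 ± 0.98 (SE; adjusted p = 0.0155), or 24.8-fold on the deposited scale. The fold was 38.9 without WT male 17, and between 17.5 and 36.1 in the other fits that left out 1 liver. Female livers alone gave 4.99 (adjusted p = 0.0645), and male livers alone 4.27 (adjusted p = 0.208).

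Igfbp2 was 12.65, 12.96 and 12.32 in KO females, against 13.60, 13.09 and 14.21 in WT females. In KO males it was 12.79, 12.78 and 11.73, against 12.97, 13.50 and 13.82 in WT males. The KO livers ended at 12.96 and the WT livers began at 12.97, so the groups met without overlapping. Igfbp2 fell by 0.99 ± 0.26 (adjusted p = 0.0369). This was the least stable call among the members: it was lost in 7 of the 12 fits that left out 1 liver, those without KO female 13 or 69, KO male 39, WT female 25 or 38, or WT male 23 or 33 (adjusted p up to 0.0882), and its sign turned to 0.13 with the spike level as a covariate.

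Igfbp3, the binding protein of the large serum complex, was 7.89, 7.49 and 7.62 in KO females, against 6.97, 6.74 and 6.89 in WT females. In KO males it was 7.27, 7.83 and 6.64, against 6.32, 6.16 and 6.03 in WT males. Each sex separated by genotype, and KO male 39 lay below the WT females 25, 27 and 38. Igfbp3 rose by 0.94 ± 0.17 (adjusted p = 0.00829), at 0.80 among females (adjusted p = 0.0896) and 1.07 among males (adjusted p = 0.0785). KO male 39 and all 3 WT males were within background, so the size in males is not exact. In liver Igfbp3 is known mainly from cells other than hepatocytes, the sinusoidal endothelial and Kupffer cells. Beside its rise, 3 of 11 endothelial markers were higher and 2 lower in KO livers, with a mean level of 7.50 to 8.49 in KO livers and 7.78 to 8.39 in WT livers. Of 12 macrophage markers 9 were higher and 1 lower. Beside these counts, 9.75% of all features passed, and 36.5% of those above background on at least 3 arrays. The part of these cells in the Igfbp3 result was not tested. Igfbp1 and Igfbp3 are neighbouring genes on chromosome 11, and both were higher in KO livers.

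**Figure D2:**
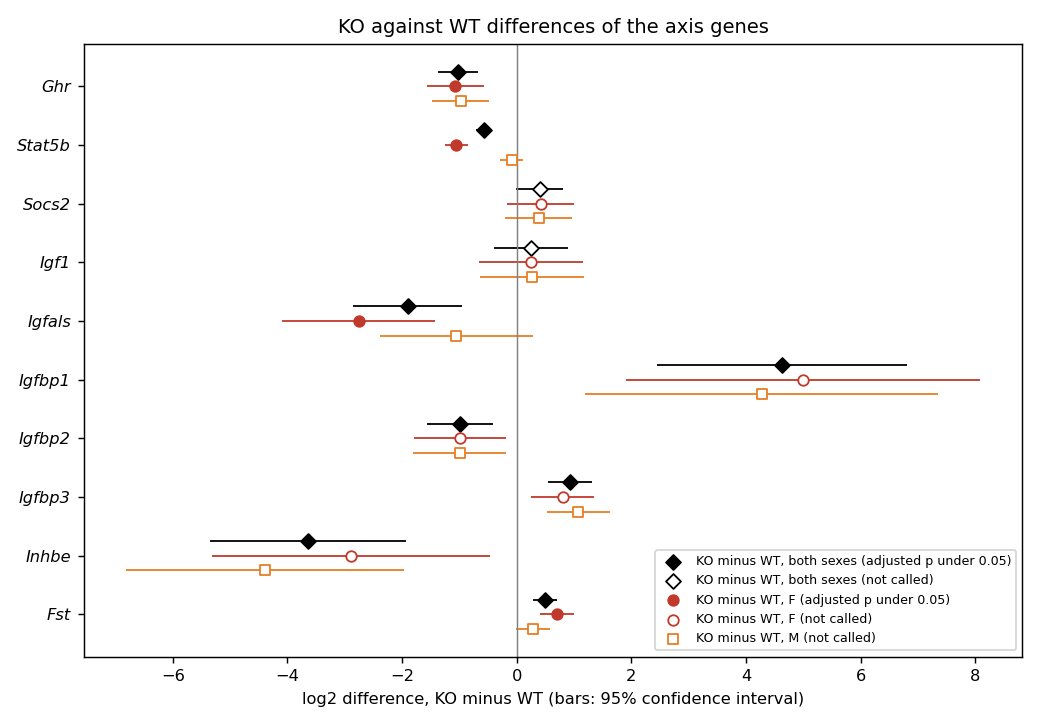
KO minus WT log2 difference of each member over both sexes, within females and within males, with 95% confidence intervals of the limma fit; filled symbols passed at an adjusted p under 0.05. Of the 10 members 8 passed over both sexes, 4 within females and 0 within males.

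Of 15 other genes of the IGF and insulin receptor axis, 0 were higher and 1 was lower in KO livers, with a median difference of -0.01 (10 of the 15 were not above background on any array). The one that passed was Irs1, the docking protein of the insulin and IGF receptors. It averaged 4.45 ± 0.34 in KO livers and 6.07 ± 0.47 in WT livers (SD, n = 6 each), a fall of 1.61 ± 0.19 (SE; adjusted p = 0.00139), and it was above background on 1 of the 12 arrays. Of 13 genes listed as insulin signalling genes or FOXO targets, 1 passed. It was Akt2, the insulin-responsive kinase, listed as a signalling gene, which fell by 0.35 ± 0.07 (adjusted p = 0.0148). Beside the counts of both lists, 9.75% of all features and 15.8% of protein-coding genes passed.

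Inhbe, the activin beta E subunit, fell furthest of the members. It was 8.98, 10.97 and 8.70 in KO females, against 11.25, 12.61 and 13.48 in WT females. In KO males it was 11.33, 6.80 and 10.43, against 13.48, 14.51 and 13.74 in WT males. Every KO liver was below the WT livers of its own sex, and over both sexes the only crossing was KO male 18 above WT female 25. The mean was 9.54 ± 1.71 in KO livers and 13.18 ± 1.12 in WT livers (SD, n = 6 each), a difference of -3.64 ± 0.77 (SE; adjusted p = 0.0153), which is 12.5-fold lower. Without KO male 19 it was 7.79-fold lower, and without both KO male 19 and WT female 38 it was 6.51-fold lower. The KO livers spread over 4.53 units, with KO male 19 lowest.

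The KO mice fell into the same sets of 3 by Igfbp1 and by Inhbe. KO female 13, KO male 19 and KO female 69 held the 3 highest Igfbp1 values, between 18.59 and 18.99, and the 3 lowest Inhbe values, between 6.80 and 8.98. The other KO mice, female 40 and males 18 and 39, had Igfbp1 between 15.34 and 16.64 and Inhbe between 10.43 and 11.33. Among these 3, mice with more Igfbp1 also had more Inhbe, the opposite direction to that between the sets. With 6 KO mice of both sexes this is a description of these livers, and no correlation was computed over the genotypes together.

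**Figure D3:**
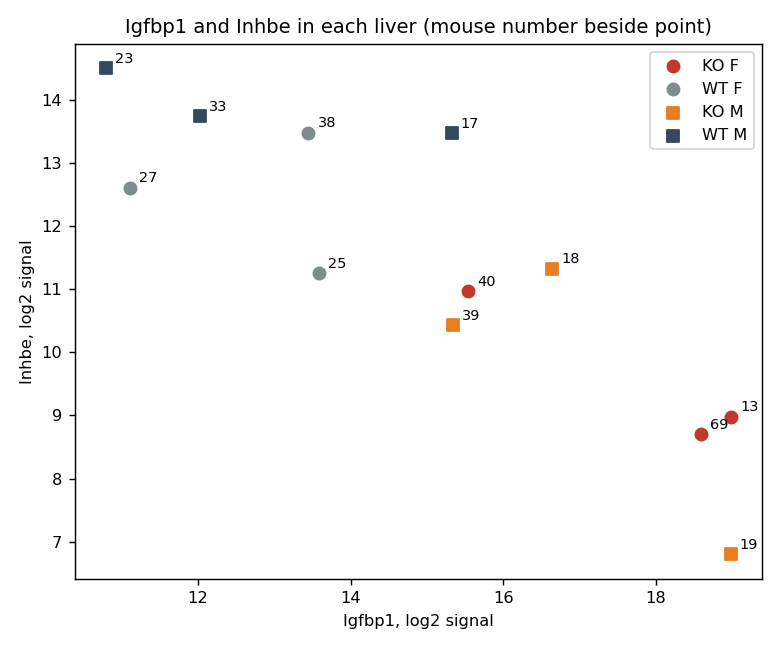
Log2 signal of Igfbp1 (horizontal) against Inhbe (vertical) in the 12 livers, marked by group and numbered by mouse. The KO mice 13, 19 and 69 sit at the lower right, and the WT livers sit at the upper left, WT male 17 furthest right among them.

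Fst, follistatin, was 5.37, 5.18 and 5.79 in KO females, against 4.67, 4.76 and 4.81 in WT females. In KO males it was 4.62, 4.69 and 4.71, against 4.47, 4.28 and 4.43 in WT males. Each sex separated by genotype, but all 12 values were within background, so that the size of the rise, 0.49 ± 0.09 (adjusted p = 0.0101), is not exact. The negative controls themselves were higher in KO livers, by 0.14. Fst passed in females (0.70, adjusted p = 0.0159) and did not in males (0.28, adjusted p = 0.419), and the difference between the sexes, 0.42, did not pass (adjusted p = 0.753).

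Of 17 other genes of the activin and follistatin family, 0 were higher and 2 lower, and 13 were not above background on any array. Beside this count, 9.75% of all features and 15.8% of protein-coding genes passed. Inhbc, the activin beta C subunit and, like Inhbe, made mainly in liver, averaged 9.15 ± 0.46 in KO livers and 11.02 ± 0.55 in WT livers (SD, n = 6 each). It fell by 1.88 ± 0.26 over both sexes (SE; adjusted p = 0.00224), with -1.91 among females (adjusted p = 0.0155) and -1.85 among males (adjusted p = 0.0458). Smad3, a signal transducer of activin receptors, fell by 0.18 ± 0.05 (adjusted p = 0.0369), within background on all arrays.

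Within females 4 of the 10 members passed, Ghr, Stat5b and Igfals lower and Fst higher, where 6.19% of all features did (3.13% higher, 3.06% lower), and 2 to 6 members passed when 1 liver was left out. Within males 0 of the 10 passed (5 at an unadjusted p under 0.05; limma), where 1.09% of all features did. Values did not overlap between KO and WT for 8 members in females, beside 25.7% of all features, and for 6 members in males, beside 18.6%. No member's effect passed the limma test of a difference between the sexes over all features. Stat5b came nearest (adjusted p = 0.0746), and it passed when only features above background were tested. For Ghr, Igfals and Fst a call in females and none in males does not show that the sexes differed. Among WT livers, females against males, 0 members passed (3 at an unadjusted p under 0.05; limma), where 0.206% of all features did. The 3 were Ghr (-0.85, adjusted p = 0.390), Igfbp3 (0.70, adjusted p = 0.661) and Fst (0.36, adjusted p = 0.698), and the WT sexes did not overlap for these and for Igf1, beside 12% of all features.

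Genes known to depend on the female or male secretion pattern of growth hormone were set beside the members. Both lists were written with earlier results of these data known, and no set test was run. In females, 6 of 18 measured female-biased genes were lower in KO livers and 0 higher, with a median difference of -1.66. Of all features 3.06% passed as lower in that comparison. That share is not like for like, because all features include many within background. With only the 10483 features above background on at least 3 arrays tested, 2247 passed as lower in females. The list itself was not counted in that test. In males 0 of the 18 female-biased genes passed in either direction, where 1.09% of all features did, and the median of the list was -0.01. Of the 18 genes 6 were above background on all arrays and 3 on none. A gene within background in WT males could show little or no fall there. The count and median in males therefore do not show that the fall was confined to females. The mean level of the list was 8.40 to 8.59 in KO females and 9.95 to 11.37 in WT females. It was 7.63 to 8.14 in KO males and 7.30 to 8.09 in WT males. Cyp2c69 and Cyp2c40, cytochrome P450 enzymes of the female liver, fell in females, with differences of -3.10 and -2.31 (adjusted p = 0.000983 and 0.00143), against -0.09 and -0.20 in males (adjusted p = 0.953 and 0.819). Acot3, an acyl-CoA thioesterase within background in all 3 KO females, was at least 5.38-fold lower in KO females than in WT females (measured means 5.88 and 9.18, adjusted p = 0.0442), and Gstt3, a glutathione transferase, differed by -1.68 (adjusted p = 0.0176). Whether the lists differed between the sexes was not tested. For the genes named here, a call in females and none in males does not show that the sexes differed.

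Of 17 male-biased genes, 6 were lower and 0 higher over both sexes, with a median difference of -1.12. Of all features 4.47% passed as lower, and of those above background on at least 3 arrays 36.5% passed in either direction. Their mean level was 10.38 to 11.99 in KO males and 12.69 to 13.07 in WT males, without overlap. It was 8.34 to 8.82 in KO females and 8.78 to 9.67 in WT females, with overlap. Elovl3, a fatty acid elongase, fell by 3.10 ± 0.66 over both sexes (adjusted p = 0.0163), with -1.39 among females (adjusted p = 0.448) and -4.81 among males (adjusted p = 0.0450). Elovl3 was above background in 1 of 6 KO livers and 5 of 6 WT livers, so these sizes are not exact. Its call in males and none in females does not show that the sexes differed. Keg1 and Ugt2b38 fell in females, with differences of -2.06 and -1.82 (adjusted p = 0.00730 and 0.00871), and differed by -1.32 and -1.29 in males (adjusted p = 0.100 and 0.0857); Keg1 was within background in all 3 KO females. Susd4 fell by 0.70 ± 0.15 over both sexes (adjusted p = 0.0173), a size that is not exact because 0 of 6 KO livers and 3 of 6 WT livers were above background. C6, a complement component named after its values were seen, went the other way in females, with 2.41 (adjusted p = 0.0497).

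**Figure D4:**
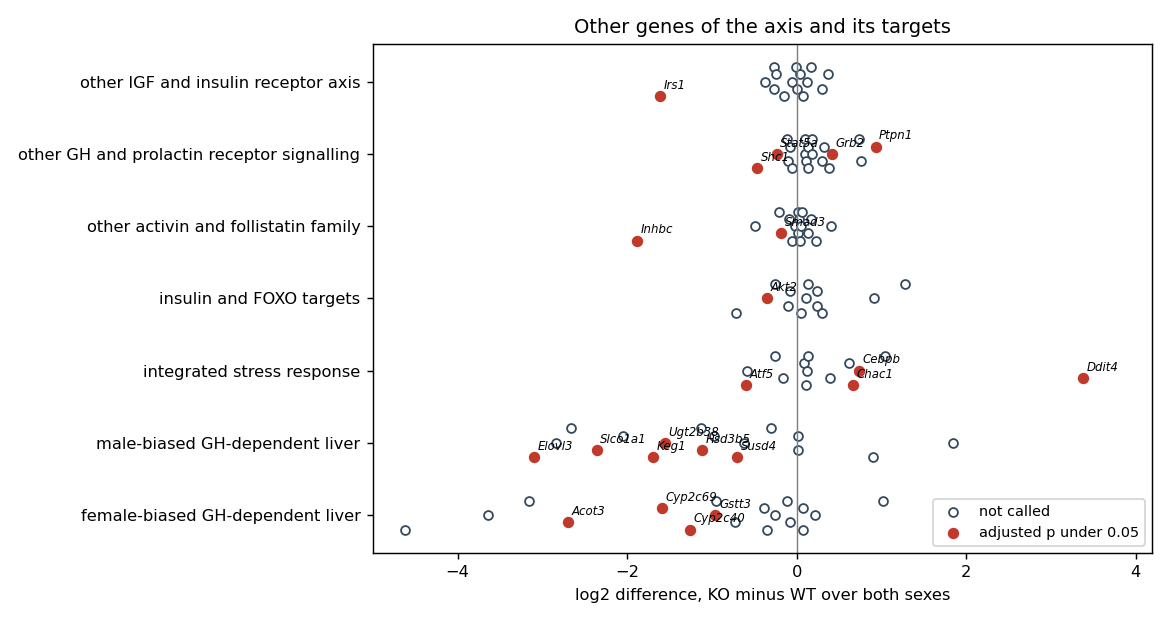
KO minus WT log2 difference over both sexes of the genes in the other lists of the axis, 1 row per list, with genes that passed at an adjusted p under 0.05 named. Male-biased and female-biased growth hormone dependent genes passed downward only, and the point furthest right is Ddit4 of the stress response. Genes within background in 1 group have no exact size.

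Of 14 genes of the integrated stress response, the route of ATF4 and C/EBP proteins, 3 were higher and 1 lower in KO livers, with a median of 0.13. Of all features 9.75% passed, and of those above background on at least 3 arrays 36.5% did. Of the 14 genes 9 were not above background on any array. Ddit4, an inhibitor of mTORC1 signalling, averaged 9.28 ± 1.77 in KO livers and 5.91 ± 0.33 in WT livers (SD, n = 6 each), a difference of 3.38 ± 0.71 (SE; adjusted p = 0.0150). It was above background in 6 of 6 KO livers and 1 of 6 WT livers, so the size is not exact; in females, where no WT liver was above background, it was at least 6.05-fold higher in KO livers. Cebpb, a transcription factor of the acute phase, rose by 0.73 ± 0.14 (adjusted p = 0.0105), and Chac1, a glutathione-degrading enzyme, by 0.67 ± 0.17 within background (adjusted p = 0.0347). Atf5, a transcription factor, fell by 0.59 ± 0.10 (adjusted p = 0.00657).

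For the 3 members with an SD of at least 1 over the 12 arrays, the genes of most similar course were listed by the root mean square difference of centred log2 values among 15903 candidates. Nearest to Igfals were Acsm5 (0.553), Gabarapl1 (0.558) and Slc16a12 (0.578). Nearest to Igfbp1 were Apcs, the serum amyloid P component (1.09), Slc3a1 (1.32) and Orm3, an orosomucoid (1.37). Nearest to Inhbe were Acaa1b, a peroxisomal thiolase (0.643), Aldh3a2, a fatty aldehyde dehydrogenase (0.889), and Acot1, an acyl-CoA thioesterase (1.01). These are likenesses over 12 livers that share genotype and sex.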

How the data were processed

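Values were the deposited log2 signals of 12 arrays. Per the submitters' processing notes they were made by the authors with Transcriptome Analysis Console; the version, normalization and genome build were not stated there. The common ceiling of 19.93 compresses high values, so folds are those of the deposited scale. Depth does not apply to arrays; the number of mice limits the precision, and litters or separate handling are not labelled. With limma 3.58.1 (R 4.3.3), 65956 transcript features were fitted with 1 mean per group, 4 groups and 8 residual degrees of freedom, and p-values were adjusted by Benjamini-Hochberg over all of them, threshold 0.05. The 6732 control features were left out of the tests. For array measures, genotypes were permuted exactly within each sex. The fit was tested on simulated data, but the outcome is not given here and no result rests on it.

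The members and gene lists were chosen with earlier results of these data known. Of 220 list genes 197 were measured. The genes named were all members, Slc29a3, from each axis list up to 4 called genes of smallest unadjusted p, and the 3 genes nearest in course to each member of SD at least 1. Of the lists of other cell types, 9 of 12 neutrophil, 1 of 6 cholangiocyte and 1 of 7 lymphocyte markers were higher in KO. Among 11 stellate cell and 4 erythroid markers 0 passed. Beside these counts, 9.75% of all features passed. Promoter windows came from RefSeq (GRCm38.p6), with 7 motifs searched on both strands. Alternatives were quantile normalization, median centring, a filter on dim features, no sex term, moderated variances with trend, array weights, the spike level as a covariate, and livers left out.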

Additional observations from a re-analysis of the deposited data

How the results depend on the processing

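Over both sexes, Ghr, Stat5b, Igfals, Igfbp1, Igfbp3, Inhbe and Fst passed in all 12 fits that left out 1 liver, and Igfbp2 in 5. Some came near the threshold: the highest limma adjusted p was 0.04996 for Igfals, 0.0417 for Igfbp1 and 0.0420 for Inhbe. The fits that left out 1 liver called 4553 to 6599 features over both sexes. They called 1581 to 4563 in females (moved by over 1.5 times without KO female 13 or 69 or WT female 27 or 38). In males they called 161 to 938 (moved so without KO female 13 or 69, KO male 18 or 39, or any WT male). They called 0 to 55 for the difference between the sexes, and 29 to 240 for WT females against males. Members called were 7 to 10 over both sexes, 2 to 6 in females (2 without WT female 38) and 0 to 1 in males (Igfbp3 without KO male 39, adjusted p = 0.0239). In females Ghr lost its call without KO female 40 or 69 or WT female 25 or 38, and Igfals without KO female 13 or 40 or WT female 27 or 38. In those fits the sign turned for Igf1 in females (-0.084 to 0.83), for the sex difference of Ghr (-0.29 to 0.12), Socs2 (-0.20 to 0.36), Igf1 (-0.35 to 0.56), Igfbp1 (-0.58 to 1.80), Igfbp2 (-0.34 to 0.30) and Igfbp3 (-0.58 to 0.015), and for Igfbp1 (-0.96 to 1.30) and Igfbp2 (-0.09 to 0.47) between the WT sexes; none of these had passed. Each such fit that left 2 mice in a group used the spread of all groups.

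With the spike covariate limma called 0 features over both sexes (5631 at an unadjusted p under 0.05), 46 in females, where all 4 members lost their call (Stat5b at an adjusted p of 0.0968), 0 in males (4821), 0 for the sex difference (4895) and 4 between the WT sexes. Igfbp2 then turned to 0.13 over both sexes, 0.0069 in females and 0.25 in males. The sex differences of Socs2 (-0.12) and Igfbp2 (-0.24) and Igfbp1 between the WT sexes (1.39) turned too. Without KO male 19 and WT female 38, 4746 features were called over both sexes, 1959 in females, where Ghr (adjusted p = 0.0554), Igfals (0.108) and Fst (0.0595) lost their call, 1130 in males, 57 for the sex difference and 265 between the WT sexes, and the sign turned for the sex differences of Igf1 (0.30) and Igfbp3 (0.025) and for Igfbp2 between the WT sexes (-0.089). Without a sex term 4 members passed, and Ghr (adjusted p = 0.0608), Stat5b (0.163), Igfals (0.121) and Fst (0.162) did not.

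Over both sexes the main fit called 3482 features higher and 2950 lower. Quantile normalization gave 2555 and 4091, and median centring 2538 and 4001, with the 8 members' calls and signs unaltered. Quantile normalization called 1089 in males, 0 for the sex difference (4204 unadjusted) and 40 between the WT sexes, with the sex difference of Igf1 at 0.063 and Igfbp2 between the WT sexes at -0.11. Median centring called 4 for the sex difference, with Socs2 at -0.013 and Igfbp2 at -0.041, and Igfbp1 between the WT sexes at 0.0039. Testing only features above background called 1649 in males and 21 for the sex difference; Socs2 and Fst fell to that filter. It brought Igfbp1 (adjusted p = 0.0262) and Igfbp3 (0.0371) past the threshold in females and Ghr (0.0261), Igfbp3 (0.0257) and Inhbe (0.0334) in males. Moderated variances with trend called 0 for the sex difference (4202 unadjusted) and 42 between the WT sexes. Array weights called 1087 in males and 0 for the sex difference (4760 unadjusted), with Igf1 at 0.24 and Igfbp2 at -0.062. The causes of these shifts were not tested. No paired analysis was possible because no animal number occurs in more than one group. Each member had 1 feature, so averaging over features gave no other value. Ceiling, background signal and 3 mice per group limit what can be resolved.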
